A study of Mus musculus with 24 samples.

Results

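Imprinted genes are expressed mainly from the copy inherited from one parent, and many of them set growth before and shortly after birth. The best known domain holds *Igf2*, a growth factor of the insulin family made from the paternal copy, and *H19*, a non-coding RNA made from the maternal copy, which share enhancers and a methylated control region. In many tissues both are abundant in the fetus and decline after birth. The 10 genes described here were *Igf2*, its antisense transcript *Igf2os*, *H19*, *Dlk1*, *Meg3*, *Cdkn1c*, *Grb10*, *Plagl1*, *Mest* and *Peg3*. They were taken by gene name from the 55335 genes counted in each library, 1 entry per name. *Igf2*, *Igf2os* and *H19* came to notice because they were lower at day 21 than at day 14, so those genes were chosen by the day 21 and day 14 counts, and values for that comparison are given as a description with no test.

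The libraries were made from cultured primary osteoblasts (OBs, the cells that make bone) of the parietal bones of mouse pups 4 to 5 days old. Wild type (WT) cultures were compared with Het cultures, heterozygous for G610C, in which a cysteine replaces a glycine of the α2(I) procollagen triple helix (*Col1a2*), on the C57BL/6J background. Bulk RNASeq of polyadenylated RNA was done at days 8, 14 and 21 of culture, and each genotype had 4 libraries at each day, 24 in all. All cultures were kept in the same medium with serum and ascorbic acid 2-phosphate, labeled as osteogenic differentiation, and no other treatment was given. Each genotype was plated from a pool of pups and wells of one preparation share that pool, so p-values measure the spread between wells and not between animals, and within a preparation genotype and pool cannot be told apart. The study describes 2 preparations that differed in litters, plating density and early oxygen, without saying which libraries came from which, and the wells it lists per genotype and day are fewer than the 4 libraries used here. The counts do not distinguish the parental copies of a gene.

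Totals ranged from 17140202 to 59734231 counts per library. The 6 libraries of replicate 1 were shallower (17140202 to 25825762) than the other 18 (28159342 to 59734231), and differed from the rest of their groups in many genes, so values are also given for replicate 1 and for replicates 2 to 4 separately. A pair of Het libraries stood apart as well. The chi-square per degree of freedom over all genes, which grows with depth, was 122 to 126 between Het day 21 replicate 4 and the other libraries of its group. Replicate 1 of that group had 66.8 and 58.7 against replicates 2 and 3, but was shallower (23618848 counts against 53976393 in replicate 4). Between Het day 14 replicate 2 and replicates 3 and 4 the chi-square was 59.1 and 44.8, against 7.45 between those last. Het against WT at days 14 and 21 is given below without Het day 21 replicate 4 and without Het day 14 replicate 2. The 7 OB markers, such as *Col1a1* and *Bglap*, rose together from day 8 to days 14 and 21, as did the 4 osteocyte markers. At days 14 and 21, 4 of the 7 OB markers were lower in Het cultures (*Bglap*, *Col1a1*, *Runx2* and *Sp7*), and all 6 macrophage markers were higher, by a median log2 fold change of 0.96. Of the other lists, *Kdr* (endothelium), *Dpt* (fibroblast), *Myh11* (smooth muscle) and *Atp6v0d2* (osteoclast) were higher in Het cultures, *Mmp9* (osteoclast) and *Sox9* (chondrocyte) were lower, and no osteocyte, adipocyte, skeletal muscle or proliferation marker passed the test. All 6 proliferation markers fell from day 8 to days 14 and 21. In bulk samples, fewer cells of a type and less RNA per cell cannot be told apart.

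*H19*, *Igf2*, *Mest* and *Meg3* host microRNAs, which are cut from the same primary transcripts and act through a seed at bases 2 to 8. They are shown because the counts of these genes measure the host transcript, while these libraries of long RNA did not measure the mature forms. The sequences are from RefSeq (GRCm38.p6), 5′ to 3′, with the seed in capitals. The *Mir675* hairpin lies in an exon of *H19* (chr7:142577064-142577147, minus strand), *Mir483* in an intron of *Igf2* *Mir335* in an intron of *Mest*, and *Mir770* and *Mir1906-1* in exons of *Meg3*, and no pair of the 9 mature forms shares a seed.
mmu-miR-675-5p: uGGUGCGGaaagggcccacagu
mmu-miR-675-3p: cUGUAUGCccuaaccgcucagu
mmu-miR-483-5p: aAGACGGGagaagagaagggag
mmu-miR-483-3p: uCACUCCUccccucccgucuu
mmu-miR-335-5p: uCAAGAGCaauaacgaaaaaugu
mmu-miR-335-3p: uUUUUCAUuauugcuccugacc
mmu-miR-770-5p: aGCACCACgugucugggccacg
mmu-miR-770-3p: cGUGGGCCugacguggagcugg
mmu-miR-1906: uGCAGCAGccugaggcagggcu

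*Igf2* is read from several promoters. RefSeq windows of the 250 bases before a start were matched by symbol for *Igf2*, *Dlk1*, *Meg3*, *Grb10*, *Plagl1*, *Mest* and *Peg3*, and 3 that hold no annotated exon are shown for *Igf2* and *Dlk1*, which were both lower late in culture. Capitals mark CG, the dinucleotide that carries imprinting methylation. The window at chr7:142666817-142667066 (minus strand) holds 1 CG, and 92.1% of 32851 mouse windows of this length hold as many or more. The window at chr7:142657497-142657746 (minus strand) holds 6, as many as the median window, and that of *Dlk1* at chr12:109452573-109452822 (plus strand) holds 8. The *Igf2* windows not shown, which hold annotated exons, have more CG. That at chr7:142661272-142661521 holds 10 and that at chr7:142658805-142659054 holds 22, and 37.8% and 14.8% of windows hold as many or more.
*Igf2*, distal start: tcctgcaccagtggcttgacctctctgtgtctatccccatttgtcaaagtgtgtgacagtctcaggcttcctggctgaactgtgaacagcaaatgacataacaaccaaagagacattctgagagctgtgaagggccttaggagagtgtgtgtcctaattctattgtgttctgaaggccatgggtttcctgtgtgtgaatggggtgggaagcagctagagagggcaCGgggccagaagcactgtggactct
*Igf2*, proximal start: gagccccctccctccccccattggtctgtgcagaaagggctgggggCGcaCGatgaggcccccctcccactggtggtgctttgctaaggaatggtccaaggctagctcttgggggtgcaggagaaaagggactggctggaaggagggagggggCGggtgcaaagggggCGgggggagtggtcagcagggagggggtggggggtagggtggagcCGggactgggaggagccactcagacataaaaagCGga
*Dlk1*: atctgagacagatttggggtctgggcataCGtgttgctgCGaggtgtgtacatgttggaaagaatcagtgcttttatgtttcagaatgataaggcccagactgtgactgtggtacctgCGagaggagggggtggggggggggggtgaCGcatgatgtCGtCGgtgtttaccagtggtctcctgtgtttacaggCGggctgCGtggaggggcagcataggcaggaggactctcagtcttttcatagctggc

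The relative quantity (RQ) of a gene relates its count to 4 housekeeping genes (*Sdha*, *Mrfap1*, *Actb* and *Actg1*), as a quotient by the geometric mean of their counts in that library, and RQ per kb of exon is used where genes are compared with each other. In WT cultures at day 8, *H19* stood highest at 6.34 RQ per kb, followed by *Igf2* at 1.04, *Mest* at 0.411, *Grb10* at 0.171, *Cdkn1c* at 0.169 and *Peg3* at 0.0826. *Plagl1*, *Meg3*, *Igf2os* and *Dlk1* followed at 0.0573, 0.0540, 0.00872 and 0.00286. The ranges of neighbors in this order overlapped for *Grb10* and *Cdkn1c*, for *Cdkn1c* and *Peg3*, and for *Plagl1* and *Meg3*. At day 21 in WT the first places were held by *H19* (1.27 RQ per kb), *Mest* (0.280), *Igf2* (0.210) and *Grb10* (0.150), with no overlap among them, so *Igf2* and *Mest* had exchanged places. *Dlk1* was last on both days, on 15 to 584 reads per library.

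**Figure D1:**
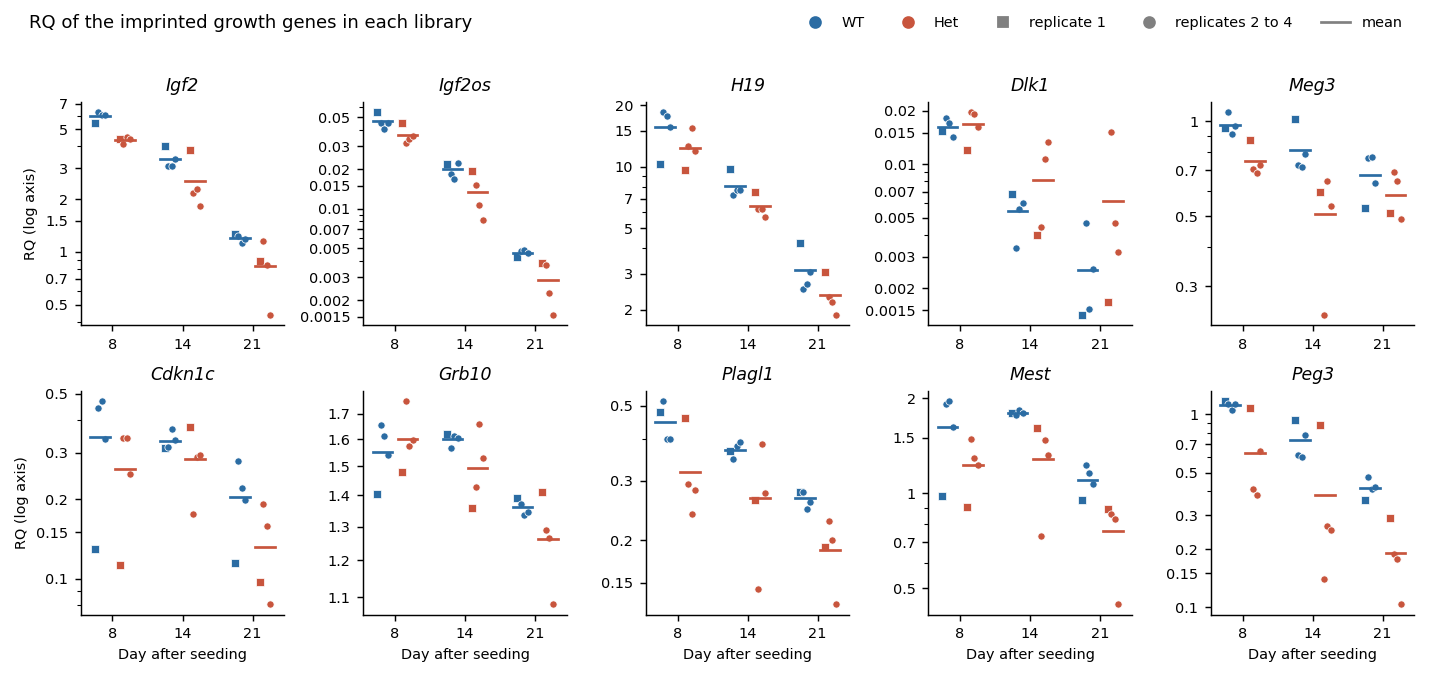
RQ of each of the 10 genes in the 24 libraries, on log axes with a scale of its own for each gene, by day after seeding. Points are libraries (squares, replicate 1) and lines are group means of 4. *Igf2*, *Igf2os* and *H19* step down at each day in both genotypes, while *Grb10* stays between 1.08 and 1.75.

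*Igf2*, a ligand of the type 1 insulin-like growth factor receptor, lies on chromosome 7 at 142650766 to 142666816 (mm10, minus strand), and all regions below are on this build. In WT cultures its RQ in replicates 1 to 4 was 5.40, 6.31, 6.04 and 6.02 at day 8, then 3.99, 3.07, 3.09 and 3.38 at day 14, and 1.26, 1.23, 1.12 and 1.19 at day 21. In Het cultures it was 4.41, 4.15, 4.51 and 4.39 at day 8, then 3.81, 2.16, 2.29 and 1.83 at day 14, and 0.884, 1.15, 0.842 and 0.437 at day 21. Every library of days 14 and 21 lay below every day 8 library of its genotype, and at day 8 every Het library lay below every WT library.

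*H19* (chromosome 7, 142575529 to 142578143, minus strand) averaged 15.6 ± 3.75 RQ (SD, n = 4) in WT at day 8, 8.10 ± 1.11 at day 14 and 3.13 ± 0.773 at day 21. The Het means were 12.4 ± 2.41, 6.41 ± 0.789 and 2.36 ± 0.496. Replicate 1 was the lowest library of both genotypes at day 8 (10.3 in WT, 9.66 in Het) and the highest at days 14 and 21. *Igf2os*, an antisense transcript that starts within *Igf2*, had means of 0.0465 ± 0.00602, 0.020 ± 0.00265 and 0.00461 ± 0.000255 for WT, against 0.0367 ± 0.00569, 0.0134 ± 0.00498 and 0.00285 ± 0.00113 for Het. Its counts rest on 39 to 1303 reads per library.

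Some of these reads were counted for more than one entry. *Gm49394*, a read-through entry on the strand of *Igf2* that shares 3596 exonic bases with it (62.8%), had 97.8% to 99.1% as many counts as *Igf2* in each library. Entries on the opposite strand inside *H19* exons were also high: *Gm27483*, which covers 71 bases, held a mean of 16607 counts against 183650 for *H19*, at 8.03% to 10.3% of *H19* in each library. *Igf2os* shares 98 exonic bases with *Igf2*, on which the mean density of *Igf2* would put 1164 reads, against a mean of 460 counted for *Igf2os*. It shares a further stretch with *Gm49394* on the opposite strand, 1142 exonic bases or 21.4% of its own in all. Reads of the antisense and of *Igf2* or *Gm49394* thus cannot be told apart.

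Between day 8 and days 14 and 21, 8 of the 10 genes fell and none rose (edgeR's quasi-likelihood test with Benjamini-Hochberg adjustment over 20434 genes), where 17.4% of all genes tested fell and 40.9% rose (58.3% in either direction). This contrast is of the average of days 14 and 21 with day 8. It thus includes the low day 21 values for which *Igf2*, *Igf2os* and *H19*, 3 of the 8, were noticed, and their tests are not independent of that choice. At day 14 alone, their mean RQ was already below that of day 8. In WT the means at days 8 and 14 were 5.94 and 3.39 for *Igf2*, 0.0465 and 0.020 for *Igf2os*, and 15.6 and 8.10 for *H19*. In Het they were 4.37 and 2.52, 0.0367 and 0.0134, and 12.4 and 6.41. *Igf2os* fell by 2.44 on the log2 scale (SE 0.14, adjusted p = 3.0e-12), *H19* by 1.65 (SE 0.11, adjusted p = 5.8e-11) and *Igf2* by 1.58 (SE 0.12, adjusted p = 4.7e-10). For these 3 of the 10 genes the groups did not overlap in either genotype, where 3.46% of all genes were lower without overlap. They are the genes chosen by their day 21 and day 14 counts. This count is thus a description and cannot be weighed against that share. The median of all genes was 0.16 on the housekeeping scale, −0.02 with TMM and −0.14 by total count. In this comparison the housekeeping scale thus places members nearer to 0 than the others do, and all 10 were negative under each.

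*Dlk1*, a membrane protein of the Notch ligand family that restrains the differentiation of precursor cells, fell by 1.66 (SE 0.29, adjusted p = 3.5e-05). *Peg3*, a zinc finger protein, fell by 1.13 (SE 0.24, adjusted p = 4.3e-04), *Plagl1*, a zinc finger transcription factor, by 0.51 (SE 0.13, adjusted p = 0.0023) and *Meg3*, a non-coding RNA of the *Dlk1* domain, by 0.43 (SE 0.12, adjusted p = 0.0055). *Grb10*, an adaptor that dampens insulin and IGF receptor signaling, fell by 0.15 (SE 0.05, adjusted p = 0.012). *Cdkn1c*, an inhibitor of cyclin-dependent kinases, and *Mest*, a hydrolase-like protein, did not pass (−0.42, adjusted p = 0.12, and −0.26, adjusted p = 0.13). Both passed with TMM, the size factors of DESeq2, the total count or without replicate 1, whose day 8 libraries had the lowest *Cdkn1c* and *Mest* of their groups. The *Meg3* call was lost without replicate 4 (adjusted p = 0.054), and that of *Grb10* without replicate 2, 3 or 4 (adjusted p = 0.056 to 0.18) or with no filter on low counts (adjusted p = 0.051).

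At day 21 against day 14, the comparison in which *Igf2*, *Igf2os* and *H19* were noticed, the fitted log2 differences were −2.17 for *Igf2os*, −1.55 for *Igf2* and −1.41 for *H19*. They were −0.91 for *Peg3*, −0.90 for *Cdkn1c*, −0.74 for *Mest*, −0.71 for *Dlk1*, −0.50 for *Plagl1*, −0.24 for *Grb10* and −0.03 for *Meg3*. Of all genes, 6.41% passed the test as lower and 14.2% as higher in this comparison. The mean RQ of *Igf2* at day 21 was 0.355 of that at day 14 in WT and 0.329 in Het, and for *H19* it was 0.387 and 0.368. The WT means of *Cdkn1c* and *Mest* at day 14 were 0.965 and 1.11 of those at day 8, but these average replicate 1, where the ratios were 2.41 and 1.84, and replicates 2 to 4, where they were 0.814 and 0.983. Whether the day 14 to day 21 change differed between genotypes was tested in an interaction fit: no member passed, nor did any of 19839 genes (0.0%), and 473 genes (2.38%), none of them a member, had an unadjusted p under 0.05.

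**Figure D2:**
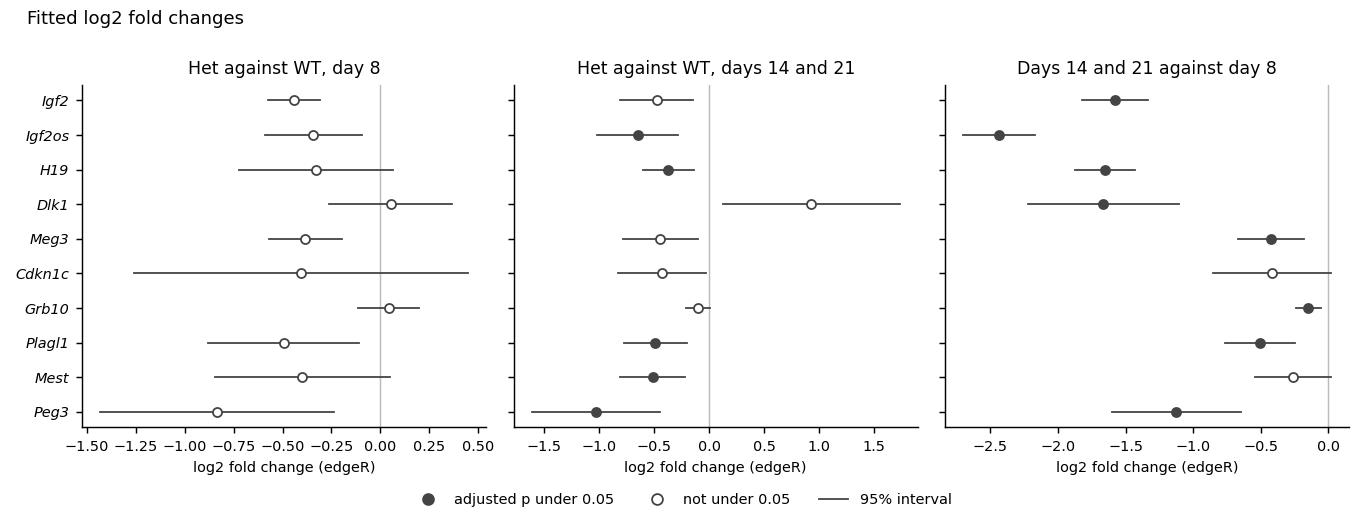
Log2 fold changes of the 10 genes fitted by edgeR, with approximate 95% intervals built from the SE, on a separate scale in each panel. Filled points had an adjusted p under 0.05: 0 genes for Het against WT at day 8, 5 at days 14 and 21, and 8 for days 14 and 21 against day 8.

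At days 14 and 21, the day pair the study combined, 5 of the 10 genes were lower in Het than in WT cultures and none was higher, where 9.76% of all 18857 genes were lower and 7.86% higher (17.6% in either direction). The log2 fold changes were −1.03 for *Peg3* (SE 0.30, adjusted p = 0.026), −0.65 for *Igf2os* (SE 0.19, adjusted p = 0.026), −0.52 for *Mest* (SE 0.15, adjusted p = 0.029), −0.49 for *Plagl1* (SE 0.15, adjusted p = 0.032) and −0.37 for *H19* (SE 0.12, adjusted p = 0.040). *Igf2* had −0.48 (SE 0.17, adjusted p = 0.060) and passed with the replicate number as a block (−0.52, adjusted p = 0.019, with 14.0% of all genes then lower) or without replicate 1 (−0.57, adjusted p = 0.014). *Meg3* at −0.44, *Cdkn1c* at −0.43 and *Grb10* at −0.10 did not pass (adjusted p = 0.083, 0.15 and 0.21), and *Dlk1* was the sole member above 0 (0.93, SE 0.41, adjusted p = 0.12). The log2 fold change was below 0 for 9 of the 10 genes and for 59.5% of all genes, with medians of −0.46 and −0.05. These medians were −0.41 and 0.002 with TMM, −0.40 and 0.013 with the size factors of DESeq2, and −0.36 and 0.045 by total count. Between genotypes the housekeeping scale thus places members further below 0 than the others do.

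These calls lie close to the threshold. By the total count only *Igf2os* and *Peg3* remained called. Without replicate 2, 3 or 4 no member passed (all genes called then 335, 263 and 141, against 3322), and without replicate 1, 7 members passed, *Dlk1* among them as higher (1.15, adjusted p = 0.029), with 22.4% of all genes lower and 17.4% higher. Leaving out 1 library at a time left between 1 and 6 members and between 2198 and 4950 genes called: 1 member (2372 genes) without Het day 14 replicate 4, 2 members without Het day 21 replicate 4 (*Igf2os* and *Mest*, 2198 genes), WT day 14 replicate 3 or WT day 14 replicate 4, and 3 without WT day 21 replicate 2, WT day 21 replicate 4 or Het day 21 replicate 3. Without Het day 14 replicate 2, 4 members (all but *H19*) and 2901 genes were called. The direction of all 10 log2 fold changes was the same in each of the 28 alternative fits. Taken alone, neither day gave a called member (34 genes of all were called at day 14 and 368 at day 21).

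*Mest* (chromosome 6, 30723547 to 30748465, plus strand) had a WT RQ of 1.80, 1.78, 1.83 and 1.79 in replicates 1 to 4 at day 14, and 0.953, 1.23, 1.16 and 1.07 at day 21. The Het values were 1.61, 0.732, 1.48 and 1.32 at day 14, and 0.895, 0.859, 0.83 and 0.444 at day 21. It was the 1 member whose genotypes did not overlap at either day (exact permutation test within days, two-sided, p = 4.1e-04, the smallest that the 4900 regroupings allow), against 1.41% of all genes lower without overlap. At day 8 the ranges overlapped, because replicate 1 of WT (0.977) lay below all Het libraries but one. *Mest* shares 912 exonic bases, 23.1% of its own, with *Copg2* on the opposite strand, whose counts were 33.0% to 52.1% of those of *Mest*, and *Copg2* was itself lower in Het cultures (−0.47, adjusted p = 0.020), so its reads may be counted in both.

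*Peg3* (chromosome 7, 6703892 to 6730431, minus strand) had a WT RQ of 1.17, 1.14, 1.06 and 1.14 at day 8, then 0.931, 0.616, 0.604 and 0.782 at day 14, and 0.36, 0.475, 0.410 and 0.419 at day 21. In Het cultures it was 1.09, 0.411, 0.380 and 0.647 at day 8, then 0.881, 0.141, 0.263 and 0.25 at day 14, and 0.291, 0.190, 0.179 and 0.104 at day 21. Het replicate 1 lay near its WT counterpart at each day, while Het replicates 2 to 4 lay below every WT library of their day. The Het to WT ratio of mean RQ was 0.929, 0.946 and 0.808 within replicate 1 at days 8, 14 and 21, and 0.432, 0.327 and 0.362 within replicates 2 to 4.

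The summed RQ of 5 chondrocyte markers (*Acan*, *Col2a1*, *Comp*, *Matn3* and *Sox9*, none at 0) was likewise close between genotypes in replicate 1 and lower in Het in replicates 2 to 4. Most of the sum at day 8 was *Col2a1* (a mean of 21.7 in WT), and *Comp* rose from day 8 to days 14 and 21 (WT means at the 3 days 1.03, 1.56 and 3.59) while *Peg3* fell. The sum in replicate 1 was 33.7 in WT and 32.8 in Het at day 8, 21.5 and 23.7 at day 14, and 12.1 and 12.8 at day 21. In replicates 2 to 4 it was 19.5 to 24.6 in WT and 5.51 to 16.7 in Het at day 8, 7.11 to 13.4 and 1.69 to 2.66 at day 14, and 6.07 to 8.89 and 1.59 to 2.25 at day 21. The 6 macrophage markers, also none at 0, had a summed RQ in replicates 2 to 4 of 1.12 to 1.90 in WT and 5.50 to 6.0 in Het at day 14, and 4.80 to 5.69 and 9.16 to 15 at day 21, against 3.60 in WT and 2.44 in Het in replicate 1 at day 14 and 4.83 and 6.30 at day 21. The part of either in the *Peg3* result, or in those of the other 9 genes, was not tested.

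**Figure D3:**
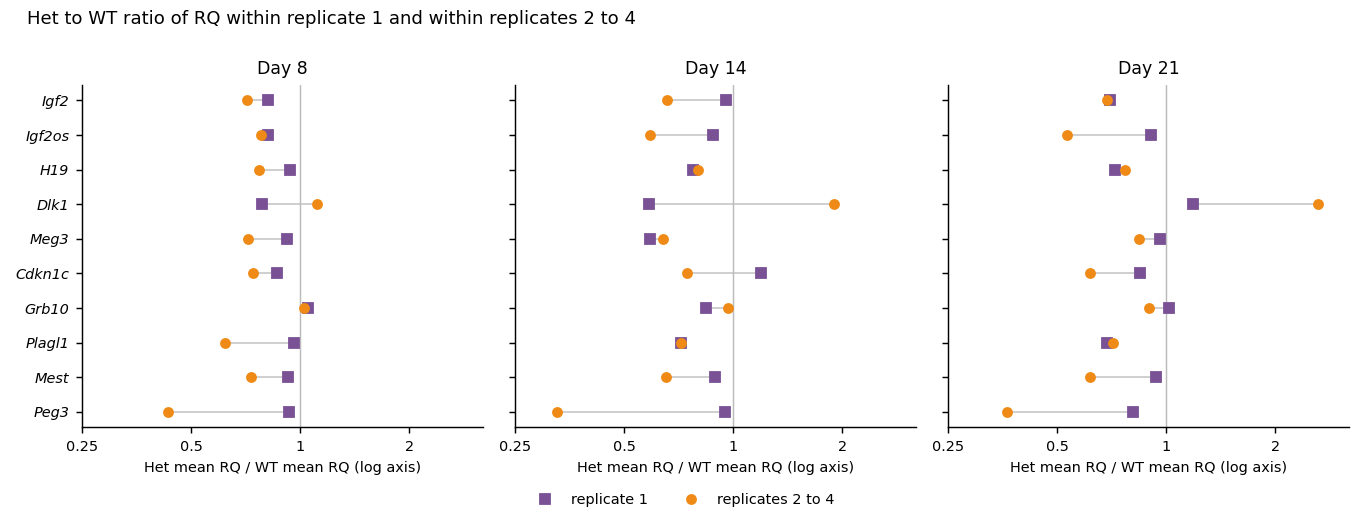
Ratio of the Het mean RQ to the WT mean RQ of each gene (log axis) at days 8, 14 and 21, within replicate 1 (squares, 1 library per group) and within replicates 2 to 4 (circles, 3 per group). *Peg3* lies near 1 in replicate 1 and between 0.327 and 0.432 in replicates 2 to 4, *H19* lies below 1 in both at each day, and *Dlk1* lies above 1 at each day in replicates 2 to 4 and at day 21 in replicate 1.

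Within replicate 1, the ratio over days 14 and 21 was below 1 for 9 of the 10 genes, as for *H19* (0.757), *Plagl1* (0.705), *Meg3* (0.717) and *Dlk1* (0.691), and above 1 for *Cdkn1c* (1.10). Within replicates 2 to 4 it was 0.792 for *H19*, 0.716 for *Plagl1*, 0.739 for *Meg3*, 0.692 for *Cdkn1c* and 2.17 for *Dlk1*. *H19*, *Plagl1* and *Meg3* were thus alike in the 2 sets, and *Dlk1* and *Cdkn1c* lay on opposite sides of 1. Counting libraries by replicate number, Het was below WT in 8 of 8 same-numbered pairs for *Igf2*, *Igf2os*, *H19*, *Meg3*, *Mest* and *Peg3*, and in 7 of 8 for *Plagl1* and *Cdkn1c*. Wells of one preparation share a pool, so these pairs are not independent. The share of all genes with as many lower pairs, or with a ratio below 1 in replicate 1, was not computed, and 59.5% of all genes had a fitted log2 fold change below 0.

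At day 8, no member passed the test of Het against WT, nor did any of 18222 genes (0.0%), although 1817 genes (9.97%) had an unadjusted p under 0.05. DESeq2's Wald test called 431 genes there, *Igf2* (adjusted p = 7.9e-08) and *Meg3* (adjusted p = 0.010) among them. *Igf2* had a log2 fold change of −0.44 (SE 0.07, adjusted p = 0.17), *Meg3* −0.38 (SE 0.10, adjusted p = 0.22) and *Peg3* −0.83 (SE 0.30, adjusted p = 0.40). *Igf2* and *Meg3* were the 2 members whose genotypes did not overlap (each exact permutation p = 0.029, the smallest that 4 against 4 allows), against 3.61% of all genes lower without overlap. Groups without overlap always give that p, which was not adjusted. With the replicate number as a block, 435 genes passed (1.33% of genes lower and 0.892% higher), and 4 members were lower: *Igf2* (−0.44, adjusted p = 0.023), *Cdkn1c* (−0.38, adjusted p = 0.025), *Igf2os* (−0.35, adjusted p = 0.030) and *Meg3* (−0.39, adjusted p = 0.046). Without replicate 1, 7 members passed, all lower, where 14.2% of all genes did. Leaving out 1 library made calls only for replicate 1: 5 members without the Het library (*Igf2*, *Igf2os*, *Meg3*, *Plagl1* and *Peg3*), with 1610 of 18443 genes called, 1184 of them lower, and 1 without the WT library (*Igf2*), with 244 of 18458 genes called.

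The genotype effect was not found to differ between day 8 and days 14 and 21 for any member, where 35 of 20434 genes (0.171%) passed that interaction test. The difference was −0.04 for *Igf2* (approximate 95% interval −0.54 to 0.47), −0.04 for *H19* (−0.50 to 0.42), −0.20 for *Peg3* (−1.18 to 0.79) and 0.89 for *Dlk1* (−0.28 to 2.05).

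Ratios of counts within a library do not depend on how libraries are scaled. Their permutation tests regrouped libraries within a day or a genotype and did not pair them by replicate number. The *H19* to *Igf2* ratio had group means between 2.39 and 3.10, and none of its 3 tests passed: Het against WT at days 14 and 21 differed by 0.18 on the log2 scale (exact permutation p = 0.27, two-sided), at day 8 by 0.13 (exact p = 0.51) and days 14 and 21 from day 8 by −0.03 (exact p = 0.83). Over a change in *Igf2* itself from 5.94 to 1.20 in the WT mean RQ, the WT mean of the ratio was 2.60, 2.39 and 2.60 at days 8, 14 and 21. These means average libraries that went opposite ways: WT replicate 1 had 1.90, 2.44 and 3.36, while replicate 2 had 2.95, 2.36 and 2.07 and replicate 3 had 2.95, 2.49 and 2.39. In Het, replicate 1 had 2.19, 1.97 and 3.46 and replicate 4 had 2.71, 3.10 and 4.33, while replicate 2 had 3.05, 2.89 and 1.99 and replicate 3 had 3.43, 2.72 and 2.60. At day 8 the ratio was higher in Het than in WT in each same-numbered pair. At days 14 and 21 such pairs went both ways, and no paired test of the ratio was run.

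*Igf2os* did not keep its ratio to *Igf2*. In WT it was 0.790% ± 0.156 of *Igf2* counts at day 8, 0.591% ± 0.0521 at day 14 and 0.386% ± 0.0372 at day 21 (SD, n = 4), and in Het 0.840% ± 0.122, 0.532% ± 0.115 and 0.346% ± 0.0701. Days 14 and 21 together lay 0.85 below day 8 on the log2 scale (exact permutation p = 1.6e-05, adjusted over the 9 ratio tests 1.5e-04), and the ratio was lower without each replicate number in turn (−0.92 to −0.74). Both genes were chosen by their day 21 and day 14 counts, so this test is not independent of that choice. Het and WT did not differ detectably in these unpaired tests (−0.17 at days 14 and 21, exact p = 0.14, and 0.10 at day 8, exact p = 0.49). Because reads of *Igf2* or *Gm49394* on shared bases can be counted for *Igf2os*, the part of the antisense RNA itself in these ratios cannot be told apart.

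*Dlk1* (chromosome 12, 109452823 to 109463336) and *Meg3* (109541001 to 109571726, both plus strand) are neighbors in one imprinted domain, the former made from the paternal and the latter from the maternal copy. The RQ of *Dlk1* in WT was 0.0153, 0.0181, 0.0169 and 0.0143 in replicates 1 to 4 at day 8, then 0.00676, 0.00338, 0.00555 and 0.00601 at day 14, and 0.00142, 0.00465, 0.00153 and 0.00256 at day 21. In Het it was 0.0120, 0.0197, 0.0191 and 0.0161 at day 8, then 0.00397, 0.00439, 0.0107 and 0.0132 at day 14, and 0.00168, 0.0151, 0.00469 and 0.00322 at day 21. The Het libraries of one day spread further than the WT libraries at each day, and the day 21 Het mean rests largely on replicate 2.

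The ratio of *Meg3* to *Dlk1* counts rose from day 8 to days 14 and 21, by 1.43 on the log2 scale (exact permutation p = 5.8e-04, adjusted 0.0026). It was lower in Het at days 14 and 21, by 1.18 (exact permutation p = 0.0094, adjusted 0.028), and at day 8 the difference was −0.42 (exact p = 0.17). In replicate 1 the ratio was 61.9, 150.0 and 376 for WT, against 72.5, 151 and 305 for Het, at days 8, 14 and 21. In replicates 2 to 4 it was 53.8 to 67.9 in WT and 35.8 to 45.3 in Het at day 8, 129 to 216 and 40.7 to 60.6 at day 14, and 165 to 502 and 45.8 to 152 at day 21. The genotypes thus did not overlap at any day in replicates 2 to 4, and in replicate 1 the ratio was lower in Het at day 21 only. Without replicate 3 the genotype difference no longer passed (−1.08, exact p = 0.070).

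**Figure D4:**
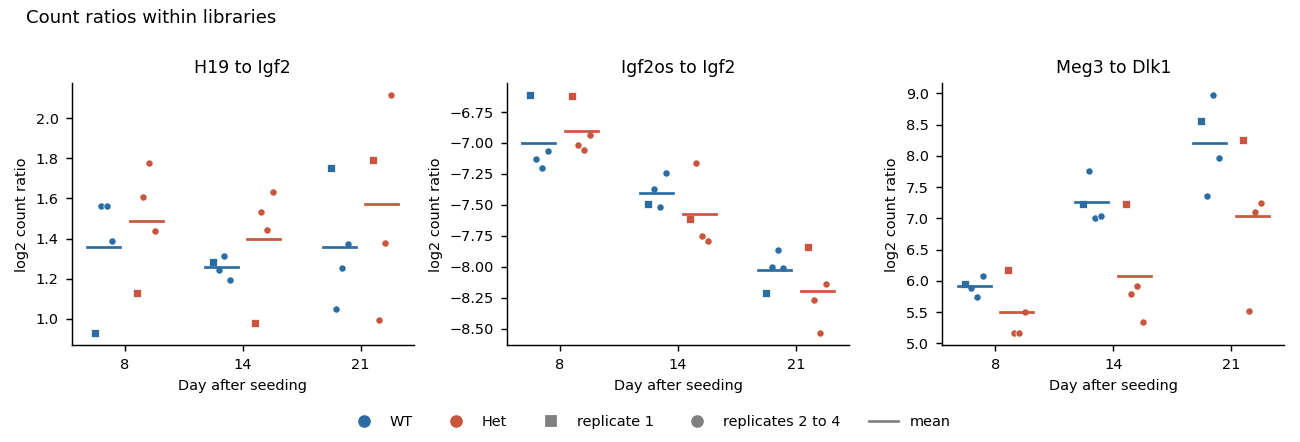
Log2 ratio of counts within each library for 3 gene pairs, by day after seeding, each panel with its own axis. Points are libraries (squares, replicate 1) and lines are means of 4. *H19* to *Igf2* goes up with day in some replicates and down in others, *Igf2os* to *Igf2* steps down from day 8 to day 21, and *Meg3* to *Dlk1* rises with day in its means, and in replicates 2 to 4 all Het points lie below the WT points of their day.

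The other genes of the *Dlk1* domain did not share 1 direction between day 8 and days 14 and 21. *Dio3*, an enzyme that inactivates thyroid hormone, rose (0.94, adjusted p = 5.5e-06), while the non-coding RNAs *Rian* (−0.93, adjusted p = 2.9e-06) and *Mirg* (−0.91, adjusted p = 1.0e-07), which were chosen after their values were seen, fell more than *Meg3*. Among 59 other imprinted genes, 51 could be tested in that comparison, of which 16 rose and 16 fell (40.9% and 17.4% of all genes), with a median of 0.05. The 3 largest falls were those of *Usp29* (−2.47, SE 0.37, adjusted p = 5.6e-06), which lies beside *Peg3*, *Peg10* (−2.32, SE 0.20, adjusted p = 1.6e-09), which derives from a retrotransposon and is needed by the placenta, and *Zdbf2* (−1.46, SE 0.17, adjusted p = 2.6e-07). The 3 largest rises were those of *Gatm*, an enzyme of creatine synthesis (2.16, SE 0.18, adjusted p = 1.5e-09), *Rasgrf1*, a Ras exchange factor (1.84, SE 0.28, adjusted p = 6.7e-06), and *Dio3*. From day 14 to day 21, 5 of 49 rose and 8 fell (14.2% and 6.41% of all genes), with *Gatm* (1.03), *Dio3* (0.74) and *Pon2* (0.34) the largest rises and *Usp29* (−1.86), *Zim1* (−1.14) and *Zdbf2* (−0.73) the largest falls.

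Of the same list, 8 of 49 were lower in Het at days 14 and 21 and 2 higher, with a median of −0.22 against −0.05 over all genes, where 9.76% of all genes were lower. *Peg10* had a mean RQ of 0.0299 ± 0.00494 in WT and 0.0135 ± 0.00146 in Het at day 14 and of 0.0210 ± 0.00251 and 0.0120 ± 0.00199 at day 21 (SD, n = 4), with no overlap at either day and a log2 fold change of −0.98 (SE 0.11, adjusted p = 7.7e-05). *Airn*, the antisense RNA of *Igf2r*, had −0.63 (SE 0.09, adjusted p = 3.9e-04) and likewise did not overlap. Both passed in all 28 alternative fits. *Zim1*, a zinc finger gene beside *Peg3*, had −0.96 (SE 0.31, adjusted p = 0.046), which was called in 9 of 28 alternatives. The other 5 were *Asb4*, *Copg2*, *Gnas*, *Impact* and *Kcnq1ot1*, and the 2 higher were *Gatm* (0.68, adjusted p = 0.035) and *Ppp1r9a* (0.41, adjusted p = 0.038), each called in 15 of 28 alternatives. *Peg10*, *Asb4* and *Ppp1r9a* lie near *Col1a2*, the mutated gene. For them, an effect of the altered locus on its neighbors and other effects of the genotype cannot be told apart. At day 8 none of 49 passed.

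The genes that receive or bind the IGF signal were taken from a list of 15, of which 13 could be tested. From day 8 to days 14 and 21, where 40.9% of all genes rose and 17.4% fell, 4 rose, among them the binding proteins *Igfbp5* (1.42, SE 0.17, adjusted p = 2.7e-07) and *Igfbp4* (0.81, SE 0.14, adjusted p = 4.9e-05) and the ligand *Igf1* (1.26, SE 0.29, adjusted p = 7.5e-04), and 5 fell, among them *Hmga2*, a chromatin protein of growing tissues (−1.99, SE 0.30, adjusted p = 6.7e-06), and the RNA-binding proteins *Igf2bp3* (−0.96, SE 0.09, adjusted p = 5.2e-09) and *Igf2bp2* (−0.64, SE 0.08, adjusted p = 7.4e-07). The mean RQ of *Igf1* in WT was 0.0901 ± 0.0423 at day 8 and 0.224 ± 0.0108 at day 21, while that of *Igf2* was 5.94 ± 0.381 and 1.20 ± 0.0590 (SD, n = 4). In Het cultures at days 14 and 21, *Igfbp6*, a binding protein that prefers IGF2, was higher (1.12, SE 0.19, adjusted p = 0.0023, but 0.058 without replicate 3 and 0.086 without replicate 4), and *Insr* (−0.22, adjusted p = 0.024) and *Igf2bp1* (−0.17, adjusted p = 0.049) were lower. The *Insr* call was lost with TMM, with the size factors of DESeq2 and by the total count (adjusted p = 0.074, 0.072 and 0.12), as was that of *Igf2bp1* (adjusted p = 0.15, 0.17 and 0.30). Between day 14 and day 21, *Igf2r* (−0.31, not called without replicate 2, 3 or 4, adjusted p = 0.064 to 0.091) and *Igf2bp1* (−0.31) fell and *Igf1r* rose (0.17, adjusted p = 0.026, called in 5 of 12 alternatives).

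Over the 24 libraries, the genes most like *Igf2* in log2 RQ among 14890 compared were *Gm49394* (Pearson's r = 1.0), *Igf2os* (0.98) and the entries within *H19* exons (0.96), with *H19* itself at rank 6 (0.96). All but *H19* share reads with *Igf2* or *H19*, and the 24 points share 6 groups and the day trend. Those most like *Dlk1* were *Lamb1* (0.92), *Fbxl7* (0.92) and *Mrgprf* (0.92), with the nearest imprinted gene, *Peg12*, at rank 224. Those most like *Cdkn1c* were its antisense entry *Gm44732* (0.99), which overlaps 30.6% of its exonic bases and had 41.7% to 57.5% of its counts, *Pdzrn3* (0.91), *Nid2* (0.90) and *Mest* (0.90).

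*Cdkn1c* itself (chromosome 7, 143458339 to 143461050, minus strand) averaged an RQ of 0.345 ± 0.154, 0.333 ± 0.0259 and 0.203 ± 0.0678 in WT at days 8, 14 and 21, and 0.260 ± 0.107, 0.283 ± 0.0816 and 0.132 ± 0.0522 in Het. Replicate 1 was the lowest at day 8 in both genotypes (0.130 in WT and 0.113 in Het, against 0.338 to 0.469 and 0.249 to 0.340 in replicates 2 to 4). *Plagl1* (chromosome 10, 13060504 to 13131694, plus strand) had 0.448 ± 0.0586, 0.371 ± 0.0184 and 0.266 ± 0.0151 for WT, against 0.318 ± 0.0968, 0.267 ± 0.0984 and 0.188 ± 0.0417 for Het, where every day 21 Het library lay below every WT library. *Meg3* had 0.976 ± 0.0690, 0.812 ± 0.138 and 0.677 ± 0.114 for WT, against 0.748 ± 0.0847, 0.507 ± 0.181 and 0.585 ± 0.0985 for Het, without overlap at days 8 and 14.

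*Grb10* (chromosome 11, 11930508 to 12038683, minus strand) had the smallest log2 fold change of the 10 between day 8 and days 14 and 21, with means of 1.55 ± 0.108, 1.6 ± 0.0236 and 1.36 ± 0.0257 for WT, against 1.6 ± 0.112, 1.49 ± 0.131 and 1.26 ± 0.136 for Het, at days 8, 14 and 21. Its Het to WT log2 fold change had an approximate 95% interval from −0.11 to 0.20 at day 8. At days 14 and 21 the interval ran from −0.22 to 0.01, and a difference as large as that of *Igf2* (−0.48) lies outside both.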

How the data were processed

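For each of 24 libraries the authors deposited unnormalized read counts of 55335 genes and the exonic length of each gene. Per the submitters' processing notes, the tools were cutadapt (2.5), STAR (2.73a) and featureCounts (1.6.4) of Subread, with mm10. The strand rule and the counting of reads with several matches are not given in the sources used here. Regions and overlaps come from GENCODE mouse release 21, in which 54587 gene identifiers and lengths were identical. That of *Peg3* differs in its version number. Counts include PCR duplicates.

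RQ follows the study's normalization. Counts as deposited were tested with edgeR 4.0.16 (glmQLFit and glmQLFTest) in R 4.3.3, with the housekeeping geometric mean as library scale, filterByExpr and Benjamini-Hochberg adjustment at 0.05, with day or genotype as covariate where both were pooled. All 10 genes passed the filter in every comparison. SE is the log2 fold change over the root of the F statistic. Exact two-sided permutation tests were used for RQ and count ratios. They regrouped libraries within a day or a genotype, without the pairing by replicate number. On simulated counts with 200 genes changed by 1.5 on the log2 scale, all were recovered for Het against WT at day 8 and at days 14 and 21 (100.0%), and 70.5% for the day 14 to day 21 interaction. That change is larger than the largest member difference between genotypes (*Peg3*, −0.83 at day 8 and −1.03 at days 14 and 21). The simulation used a common dispersion, housekeeping genes without noise and no shift between replicates. It thus does not tell how often differences of the members' size would be found. List genes are named where among the 3 largest rises or falls with an adjusted p under 0.05 and a mean of at least 50 counts, and a few others were named after their values were seen. Genes most like a member were ranked by Pearson's r of log2 RQ. The lists were other imprinted genes, IGF and fetal growth genes, and markers of 10 cell types and of proliferation. The 10 genes and the lists were chosen with earlier results of these data known.

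Same-numbered WT and Het libraries of a day deviated together from their group means in all 12 pairs (r = 0.193 to 0.713, median 0.453, against −0.124 over 36 pairs of different numbers; within replicates 2 to 4 the medians were 0.439 and 0.243), so the numbers were taken to pair the samples. The pairing comes from the labels' replicate numbers and this check. Blocked values are given where they change a call. As alternatives the libraries were scaled by TMM, by the total count or by the size factors of DESeq2; others were DESeq2's Wald test (1.42.0), other filters on low counts, the replicate block, replicate 1 as a covariate, single days, and each replicate number or library left out.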

Additional observations from a re-analysis of the deposited data

Results flagged for a closer look

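In 2 of 60 groups of 4 libraries (10 genes in 6 groups), 1 library stood apart from the other 3 by more than Dixon's 95% criterion allows, where chance gives about 1 in 20, or 3. The RQ of *Mest* in Het day 21 replicate 4 was 0.444, against 0.83 to 0.895 in the other 3 Het libraries of that day. The RQ of *Peg3* in Het day 14 replicate 1 was 0.881, against 0.141 to 0.263 in the other 3. Het day 21 replicate 4 had the lowest RQ of its group for each of the 10 genes except *Dlk1*, such as *Igf2* (0.437), *Igf2os* (0.00155), *Plagl1* (0.129) and *Peg3* (0.104). It also differed from the other libraries of its group over all genes, with a chi-square per degree of freedom of 122 to 126, against 5.32 between replicates 2 and 3.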

How the results depend on the processing

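The 10 genes kept the sign of their log2 fold change in all 28 alternatives for Het against WT at days 14 and 21 and in all 36 for days 14 and 21 against day 8. For Het against WT at days 14 and 21, the genes called numbered 5082 with replicate 1 as a covariate, 34 at day 14 alone and 368 at day 21 alone, against 3322, and members called were 2 by the total count and 0 at either day alone, against 5. At day 8, where no gene was called, DESeq2 called 431 genes and 2 members, the replicate block 435 and 4, and the covariate 798 and 5. For the difference of the genotype effect between days 14 and 21 and day 8 (35 genes), DESeq2 called 92, the block 67 and the covariate 72, and for the day 14 to day 21 interaction (0 genes) DESeq2 called 1. The replicate block added *Igf2* at days 14 and 21 and the 4 members at day 8 and changed no other member's call. By scaling, higher and lower calls for days 14 and 21 against day 8 numbered 8351 and 3560, but 5601 and 6692 with TMM, 6145 and 6049 with the size factors of DESeq2 and 4339 and 8805 by the total count. For Het against WT at days 14 and 21 they were 1482 and 1840, then 2503 and 1540, 2732 and 1441, and 3345 and 1052.

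Leaving out 1 replicate number or library gave 141 to 7536 genes and 0 to 7 members for Het against WT at days 14 and 21, 0 to 3432 genes and 0 to 7 members at day 8, 0 to 928 genes for the difference between them, 1714 to 5560 for day 21 against day 14, 6 to 10 members for days 14 and 21 against day 8, −1.53 to −0.94 for the *Meg3* to *Dlk1* ratio between genotypes at days 14 and 21, and −0.18 to 0.089 for the *H19* to *Igf2* ratio between days. Values whose sign changed were near 0 and passed no test. At day 8 they were *Dlk1* (−0.035 to 0.18) and *Grb10* (−0.0035 to 0.078). For the difference between days 14 and 21 and day 8 they were *Igf2* (−0.17 to 0.13), *H19* (−0.19 to 0.030), *Meg3* (−0.16 to 0.032), *Cdkn1c* (−0.13 to 0.043, with 0.0028 under the block and 0.010 under the covariate), *Plagl1* (−0.20 to 0.21, with −0.026 by TMM and −0.017 by the size factors) and *Peg3* (−0.33 to 0.011). For the day 14 to day 21 interaction they were *Igf2* (−0.32 to 0.063), *Grb10* (−0.11 to 0.062), *Plagl1* (−0.29 to 0.12), *Mest* (−0.25 to 0.13) and *Peg3* (−0.32 to 0.15). The cause of these changes was not tested, beyond the smaller number of libraries.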
